A study of Mus musculus with 2 samples.

Results

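The genes described here are Wt1 and 6 further transcription factor genes of the kidney glomerulus and its surroundings: Tcf21, Lmx1b, Foxc1, Foxc2, Foxl1 and Zhx2. These 7 were taken by name from 21938 protein-coding genes. No measured value set the choice, but earlier results of these data were known when it was made. Their accessible chromatin was read from 2 DNase-seq libraries of whole kidney of newborn mice (strain B6NCrl, postnatal, age 0 days), which per the labels are biological replicates 1 and 2 of 1 group with separate tissue records and 1 common donor record. No genotype or treatment sets the libraries apart. The labels do not say whether different animals were used, and differences between the replicates could therefore be technical. DNase I cuts DNA that is free of nucleosomes, so a peak marks an accessible promoter, enhancer or insulator. A site counted as shared when peaks of both replicates overlapped, and of 197749 such sites 319 fell no further than 100 kb from the most 5′ transcription start site (TSS) of at least 1 of the 7 genes. The signal of a peak is the authors' own value. Its scaling for depth is not stated, and the depth of the libraries is unknown. With 1 group there is no contrast to test, and no p-value was computed.

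Podocytes are the epithelial cells that wrap the glomerular capillaries and form the filtration slits. WT1, a zinc finger protein named after Wilms tumour, acts first in the mesenchyme that is induced to form nephrons and is kept in mature podocytes, where it binds the genes of the slit diaphragm. TCF21 is a basic helix-loop-helix factor of kidney mesenchyme and podocytes, LMX1B is the LIM-homeodomain factor mutated in nail-patella syndrome, and FOXC1 and FOXC2 are closely related forkhead factors of mesoderm, of which FOXC2 is needed for podocyte maturation. FOXL1 is a forkhead factor best known from mesenchymal cells, and ZHX2 is a zinc finger and homeobox repressor. In whole kidney, the number of open cells and the openness per cell cannot be told apart, and several of these genes are also active in stroma, vessels or nephron progenitors.

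The strongest shared promoter sites of 6 of the genes are shown first, since they hold the highest shared signal at these promoters. A promoter site here lies within 1 kb of any annotated start site of the gene. Those of Lmx1b and Zhx2 do not cover the most 5′ TSS. The Lmx1b site lies in intron 2, 8815 bp downstream of that TSS, and the Zhx2 site in intron 1, 951 bp downstream. Both are near starts of noncoding transcripts. Each is written 5′ to 3′ on the strand of its gene, from mouse GRCm38, the same assembly as the mm10 of the deposited files. Stretches annotated as untranslated region are cut to at most 30 bases. Capitals mark exact matches, on either strand, to any of 10 short motifs spelled out further on.
Wt1 (chr2:105126461-105126558, plus strand): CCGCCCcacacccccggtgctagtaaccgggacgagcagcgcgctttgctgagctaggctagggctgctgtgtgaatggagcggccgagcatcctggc
Tcf21 (chr10:22820145-22820270, minus strand): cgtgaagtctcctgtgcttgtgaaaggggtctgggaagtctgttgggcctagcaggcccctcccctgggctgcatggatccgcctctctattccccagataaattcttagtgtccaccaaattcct
Lmx1b (chr2:33631581-33631810, minus strand): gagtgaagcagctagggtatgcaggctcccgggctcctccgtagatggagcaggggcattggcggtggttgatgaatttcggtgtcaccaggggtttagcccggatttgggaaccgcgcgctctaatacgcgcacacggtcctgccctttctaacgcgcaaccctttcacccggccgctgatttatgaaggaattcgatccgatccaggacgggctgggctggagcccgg
Foxc1 (chr13:31806541-31806662, plus strand): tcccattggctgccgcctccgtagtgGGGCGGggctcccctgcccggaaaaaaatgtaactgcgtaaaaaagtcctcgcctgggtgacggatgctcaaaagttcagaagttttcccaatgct
Foxc2 (chr8:121116041-121116190, plus strand): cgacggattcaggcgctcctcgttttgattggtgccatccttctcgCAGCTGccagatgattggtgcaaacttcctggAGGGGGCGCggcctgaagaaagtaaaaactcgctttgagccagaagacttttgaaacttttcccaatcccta
Zhx2 (chr15:57695541-57695690, plus strand): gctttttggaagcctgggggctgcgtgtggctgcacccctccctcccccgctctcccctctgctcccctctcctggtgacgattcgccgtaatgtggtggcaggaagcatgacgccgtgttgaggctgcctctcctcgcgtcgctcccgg

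Every one of the 7 genes had a promoter peak, that is, a peak within 1 kb of any of its TSSs in GENCODE release M21, in both replicates. Among all protein-coding genes 71.8% did, and among those in the top quintile of promoter CpG content 99%. The genes fell into an upper and a lower set by the signal of their strongest promoter peak. Foxc2 reached 208 ± 17.8 (SD, n = 2), Foxc1 167 ± 6.57, Tcf21 142 ± 6.65 and Wt1 116 ± 7.54, all above 99.8, the median of protein-coding genes with a promoter peak in both replicates. Foxl1 had 71.1 ± 19.7, Zhx2 70.6 ± 1.82 and Lmx1b 35.5 ± 1.03, all below that median. For Lmx1b the strongest peak was a different one in each replicate, so its SD is not the spread of a single peak. The sites of these peaks had 36.2 and 26.4 in replicates 1 and 2, and 32.0 and 34.8. A signal at least as high was found at 31.3% of these genes for Tcf21, 63.9% for Foxl1 and 64.1% for Zhx2. The replicate values of Foxl1 and Zhx2 overlapped, whereas the other neighbours in this order did not. When all peaks in the window were summed in place of taking the strongest, the order turned: Zhx2 had 339, Foxc2 301, Wt1 238, Foxc1 227, Lmx1b 174, Tcf21 162 and Foxl1 128. Genes with start sites far apart have wider windows: Wt1 has 8, one of them at 105162808 inside the gene, Lmx1b has 3 and Zhx2 has 2.

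**Figure D1:**
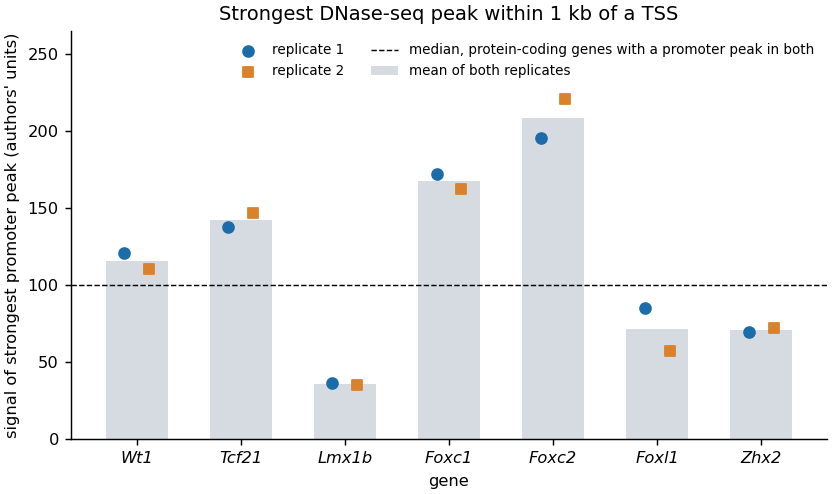
Signal of the strongest peak within 1 kb of any TSS of each gene, in the authors' units, with points for the replicates and bars for their mean. Foxc2, Foxc1, Tcf21 and Wt1 stand above the dashed line at 99.8, the median over protein-coding genes with a promoter peak in each replicate, and Foxl1, Zhx2 and Lmx1b below it. The points of Lmx1b are different peaks in the replicates.

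In 5 of the 7 genes the base of the most 5′ TSS lay inside a shared site, against 39.7% of protein-coding genes. The exceptions were Lmx1b and Foxl1. CpG content and signal were not in the same order: the observed over expected CpG ratio within 500 bp of the most 5′ TSS was 0.993 for Foxc2 and 0.942 for Foxc1, but 0.468 for Tcf21, the lowest of the 7, and 0.837 for Lmx1b, whose promoter signal was the lowest. The median over all protein-coding genes was 0.552. For Lmx1b the ratio and the signal were read at different places. Its strongest peaks were centred 1015 and 8855 bp downstream of the most 5′ TSS in replicates 1 and 2. The strongest peak of Zhx2 was centred 951 bp downstream.

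**Figure D2:**
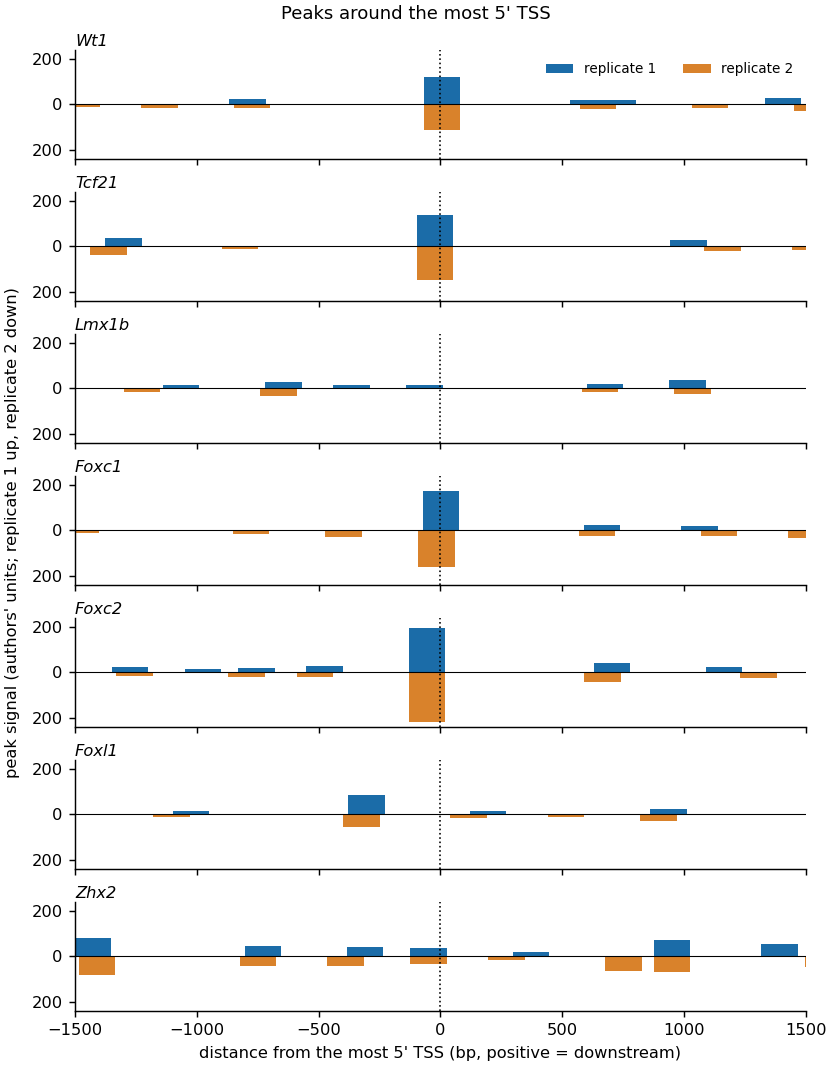
Peaks around the most 5′ TSS of each gene, by distance in bp, drawn to scale in width, with replicate 1 above and replicate 2 below the line and signal in the authors' units. Wt1, Tcf21, Foxc1 and Foxc2 each have a single tall peak at the start site, Zhx2 has a row of middling peaks, Foxl1 has its peak upstream of the start site, and Lmx1b has only low peaks.

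Wt1 spans 47.1 kb of chromosome 2 (105126529 to 105173616, plus strand) and has 9 annotated transcripts from 8 start sites. Its promoter peak lay at 105126461 to 105126610 in each replicate, over the most 5′ TSS, and its signal was 121 and 110 in replicates 1 and 2. Here 42.6% of genes with a promoter peak had at least this signal. The antisense gene Wt1os starts 19 bp upstream of the Wt1 TSS on the other strand, so the peak belongs to both start sites. The further peaks of the Wt1 window were all lower, the highest of them 31.4 in replicate 1 and 35.1 in replicate 2. Over the start site at 105127210 the signal was 18.3 and 21.4. The other 6 start sites lay in no peak of either replicate, among them the one at 105130883, from which 2 of the transcripts begin.

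Inside Wt1, shared sites lay only in the 5′ part of the gene. Of the 58 shared sites around Wt1, 34 lay upstream and 24 downstream of the TSS, and 12 lay in the gene. All 10 intronic ones fell in introns 1 to 3, which together measure 15416 bp. Introns 4 to 9 measure 28578 bp and held 0 shared sites, and also 0 peaks in replicate 1 and 0 in replicate 2. The longest stretch with no shared site ran from 12957 to 61897 bp downstream of the TSS, a distance of 48940 bp, which was the longest such stretch among the 7 genes. The strongest distal site lay in intron 1, centred 5967 bp into the gene (105132421 to 105132570), with 80.6 in replicate 1 and 77.4 in replicate 2. It is shown in full because it is the highest of the sites away from any annotated start at Wt1.
Wt1 intron 1 site (chr2:105132421-105132570, plus strand): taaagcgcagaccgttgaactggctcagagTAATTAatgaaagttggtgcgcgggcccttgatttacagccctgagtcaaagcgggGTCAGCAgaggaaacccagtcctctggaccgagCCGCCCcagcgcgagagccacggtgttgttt
It held a match each to the homeodomain letters, the MAF half-site and the SP/KLF letters. The sites next in rank lay outside the gene. At -83203 bp from the TSS (negative is upstream), a site between genes had 66.3 and 48.4, and at -17473 bp, a site in an intron of Wt1os had 54.2 and 55.8. Of the 58 sites, 16 lay within 1 kb of a TSS of any gene, and these include sites at Wt1os and at small RNA genes annotated just upstream of Wt1. For 22 of the 58 the nearest protein-coding TSS was that of Wt1.

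**Figure D3:**
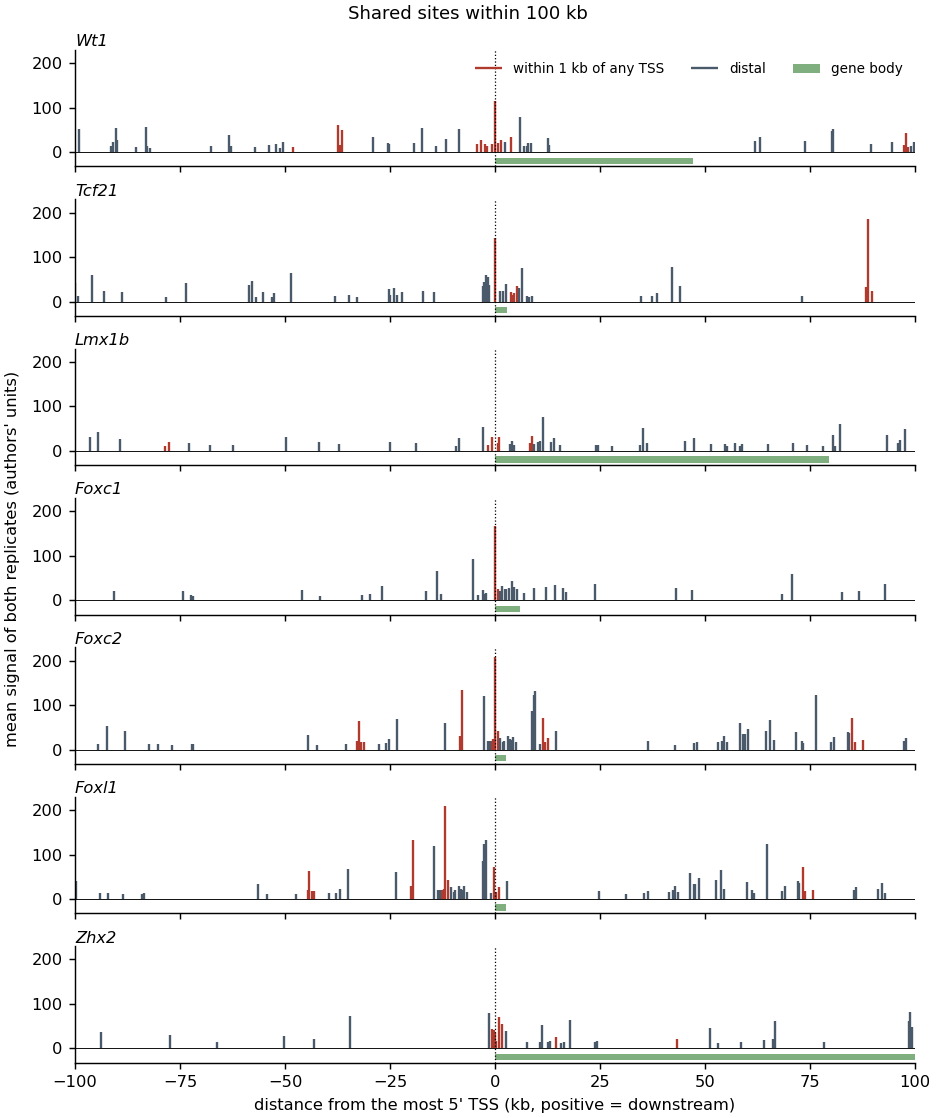
Shared sites around each gene, up to 100 kb from its most 5′ TSS, by distance in kb (positive is downstream) and mean signal of both replicates in the authors' units, with sites within 1 kb of any annotated TSS in red. Wt1 sites stop 12957 bp into the gene and resume 61897 bp downstream of the TSS, Lmx1b and Zhx2 sites run along the gene body, and the maps of Foxc2 and Foxl1 show nearly the same sites.

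Tcf21 is a short gene of 2.89 kb on chromosome 10 (22817281 to 22820174, minus strand). It had the most compact promoter of the 7. A single peak at 22820121 to 22820270 covered both of its annotated start sites, with 138 in replicate 1 and 147 in replicate 2, and each replicate held just 1 further peak in the window, 27.8 in replicate 1 and 11.5 in replicate 2. No other gene starts within 1 kb of that promoter peak, although the antisense gene Gm10824 runs across it. Within 100 kb there were 51 shared sites, of which 18 lay within 10 kb, and Tcf21 had the nearest protein-coding TSS for 47 of them. The 3 highest distal sites lay downstream and upstream of the gene alike: 42058 bp downstream with 80.4 and 76.8, 6458 bp downstream with 84.5 and 68.4, and at -48502 bp, upstream, with 68.3 and 61.4. None of these was in the single intron of the gene, which held 2 shared sites.

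Lmx1b covers 79.5 kb of chromosome 2 (33560965 to 33640511, minus strand), and the strongest peak in its promoter window was the lowest of the 7. In replicate 1 a peak of 14.05 covered the most 5′ TSS. In replicate 2 no peak covered it, and the nearest was centred 655 bp downstream. The window instead held several low peaks, 10 in replicate 1 and 6 in replicate 2. The highest of them differed between replicates: in replicate 1 it was 36.2, centred 1015 bp downstream of the most 5′ TSS, and in replicate 2 it was 34.8, in the window of the start site of a noncoding transcript at 33632283. Of genes with a promoter peak in both replicates, 81.7% had at least the signal of Lmx1b. A further low peak, 28.8 and 32.5, lay upstream at the start of the antisense gene C130021I20Rik.

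Many sites of Lmx1b lay inside the gene. Of its 57 shared sites, 31 were intronic, and 29 of these were in intron 2, which measures 70206 bp. The strongest distal site lay in this intron, 11415 bp downstream of the TSS, with 75.02 in replicate 1 and 76.8 in replicate 2, above the promoter signal of 36.2 and 34.8. Its sequence follows.
Lmx1b intron 2 site (chr2:33629001-33629190, minus strand): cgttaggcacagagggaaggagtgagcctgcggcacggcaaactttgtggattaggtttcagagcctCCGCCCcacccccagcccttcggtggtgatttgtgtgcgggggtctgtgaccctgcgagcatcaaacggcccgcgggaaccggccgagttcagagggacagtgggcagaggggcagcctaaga
Next in rank came a site 82075 bp downstream and so beyond the 3′ end of the gene, with 52.7 and 66.7. A site 2765 bp upstream, in an exon of C130021I20Rik, had 50.5 and 55.6. The sites were spread without wide gaps, the longest measuring 12640 bp, the shortest such value among the 7 genes. Lmx1b had the nearest protein-coding TSS for 48 of the 57.

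The forkhead genes Foxc1 and Foxc2 had the highest promoter signals and a peak right on the start site. Foxc1 (chromosome 13, 31806633 to 31812476, plus strand) is a single exon, and its promoter peak had 172 in replicate 1 and 163 in replicate 2. Foxc2 (chromosome 8, 121116171 to 121118895, plus strand), also a single exon, had 196 and 221 at the same position in both replicates. Just 12.1% of genes with a promoter peak had a signal as high as that of Foxc2, and 22.7% had one as high as that of Foxc1. Each gene also carried sites within its exon, 9 of 41 shared sites within 100 kb at Foxc1 and 4 of 73 at Foxc2. Around Foxc1 the highest distal sites were upstream, 5237 bp from the TSS with 85.6 and 101, and 13917 bp from it with 60.2 and 69.5. A further one, with 65.9 and 54.3, lay 70633 bp downstream in an intron of the neighbouring gene Gmds. Foxc1 had the nearest protein-coding TSS for 40 of its 41 sites.

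Other forkhead genes of the same clusters had lower promoter signals. Foxf2, of the cluster of Foxc1, had 16.0 and 21.05, and Foxq1 had no promoter peak in replicate 1 and 15.0 in replicate 2. Foxf1, which starts at -31785 bp from the Foxc2 TSS, had 62.1 and 66.1.

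Foxl1 (chromosome 8, 121127940 to 121130644, plus strand) starts 11769 bp downstream of the Foxc2 TSS, so the windows of the 2 genes hold nearly the same sites: 71 sites were in both, which was 97.3% of the 73 of Foxc2 and 95.9% of the 74 of Foxl1. Its promoter peak was centred upstream of the TSS in both replicates, and reached 85.03 and 57.2, the widest spread between replicates among the 7 promoters. No peak covered the TSS, and the nearest one downstream had 15.0 and 18.8. Much higher signal lay further upstream. A run of 3 shared sites centred 2864, 2544 and 2254 bp upstream of the Foxl1 TSS rose from 86.1 ± 10.3 over 124 ± 10.4 to 133 ± 6.44, so that its highest member exceeded the Foxl1 promoter in each replicate (128 and 138 against 85.03 and 57.2). That member is printed because it was the highest distal site at both Foxc2 and Foxl1.
Foxl1 upstream site (chr8:121125601-121125770, plus strand): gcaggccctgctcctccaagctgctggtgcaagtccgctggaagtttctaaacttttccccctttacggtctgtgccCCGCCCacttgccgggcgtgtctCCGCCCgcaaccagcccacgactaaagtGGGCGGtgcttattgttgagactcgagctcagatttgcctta
Between the 3′ end of Foxc2 and the Foxl1 TSS, a distance of 9044 bp, there were 10 shared sites. Other high sites of the region were 2705 bp upstream of Foxc2, with 113 and 127, and 64736 bp downstream of Foxl1, with 119 and 127. Annotation calls these sites intronic, because the predicted gene Gm20388, of 4435 kb, runs across the whole region. The nearest protein-coding TSS was that of Foxl1 for 39 of the 74 sites in its window, and that of Foxc2 for 15 of the 73 in its own.

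Zhx2 is the longest of the 7 genes at 145 kb (chromosome 15, 57694665 to 57839832, plus strand), and its promoter was broad. Replicate 1 held 7 peaks in the promoter window and replicate 2 held 8. The most 5′ TSS itself lay under a peak of 35.8 and 33.5. The highest was centred 951 bp downstream, close to the start of a noncoding transcript at 57695729, with 69.3 and 71.9. Beside it each replicate had a high peak that the other lacked at that position, 52.4 in replicate 1 (57695981 to 57696130) and 63.5 in replicate 2 (57695341 to 57695490). These were the highest unshared peaks at any of the 7 genes, so single peaks in this stretch were placed differently in the replicates. A site 1419 bp upstream, just outside the promoter window, was higher than any inside it, with 78.0 and 81.6.
Zhx2 upstream site (chr15:57693161-57693330, plus strand): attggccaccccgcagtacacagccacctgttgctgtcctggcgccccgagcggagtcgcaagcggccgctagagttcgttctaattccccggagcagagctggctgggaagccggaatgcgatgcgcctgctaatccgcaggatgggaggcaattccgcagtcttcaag
With 36 shared sites, Zhx2 had the fewest of the 7. Of these, 25 were intronic, 21 of them in intron 1, which measures 67641 bp. A site in intron 2, 98821 bp downstream of the TSS, had 95.4 and 66.6, and a site 34469 bp upstream had 72.6 and 72.0. Between the latter and the site 1419 bp upstream, a stretch of 33050 bp held no shared site. The window ends inside the gene: intron 2 held 13 shared sites along its whole length, of which 4 lay within 100 kb.

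All 7 genes had more shared sites within 100 kb than the median protein-coding gene, which had 22 (quartiles 11 and 35). Their median was 57 and their range 36 to 74. The number around Foxl1 was reached by 0.428% of protein-coding genes, that around Foxc2 by 0.488%, Wt1 (58 sites) by 3.69%, Lmx1b (57) by 4.13%, Tcf21 (51) by 7.77%, Foxc1 (41) by 17.7% and Zhx2 (36) by 24.9%. Since Foxc2 and Foxl1 share their sites, their 2 counts are not separate observations. Distance alone does not tie a site to the gene. Of the 319 distinct sites, 58 were promoter sites, with a centre within 1 kb of any annotated TSS, and 261 were distal. By place, 164 were intronic, 42 exonic and 113 intergenic. The median signal of the 261 distal sites was 22.4 and 20.3 in the replicates, and that of all distal sites 19.8 and 18.6.

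**Figure D4:**
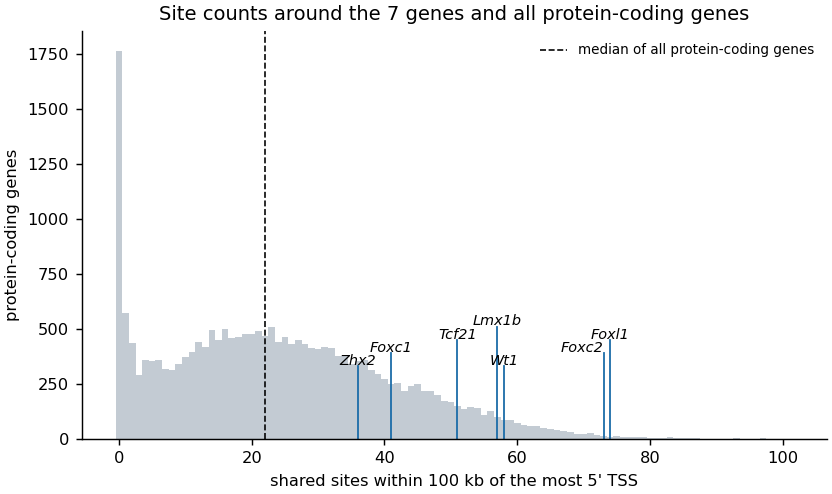
Number of protein-coding genes (vertical axis) by their count of shared sites up to 100 kb away (horizontal axis), with the 7 genes marked by vertical lines. All 7 stand to the right of the dashed median at 22, from Zhx2 at 36 to Foxl1 at 74.

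The replicates gave alike values at these sites. Over the 319 sites Pearson's r of log2 signal was 0.939 and Spearman's rho 0.911, against 0.944 and 0.899 over all shared sites; sites share their libraries, so these describe the lists and carry no p-value. After centring on the median of all shared sites, the log2 ratio of replicate 2 over replicate 1 ran from -0.98 to 0.90, so 0 of the 319 sites differed more than 2-fold, against 0.638% of all shared sites. By gene, the median log2 ratio was -0.15 at Wt1, -0.13 at Tcf21, -0.12 at Foxc1 and -0.08 at Zhx2, and 0.05 at Lmx1b, 0.07 at Foxc2 and 0.08 at Foxl1. Of the peaks within 100 kb of each gene, 78.4% to 86.0% of replicate 1 and 74.5% to 85.1% of replicate 2 had a partner in the other list, compared with 74.7% and 77.3% of all peaks.

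**Figure D5:**
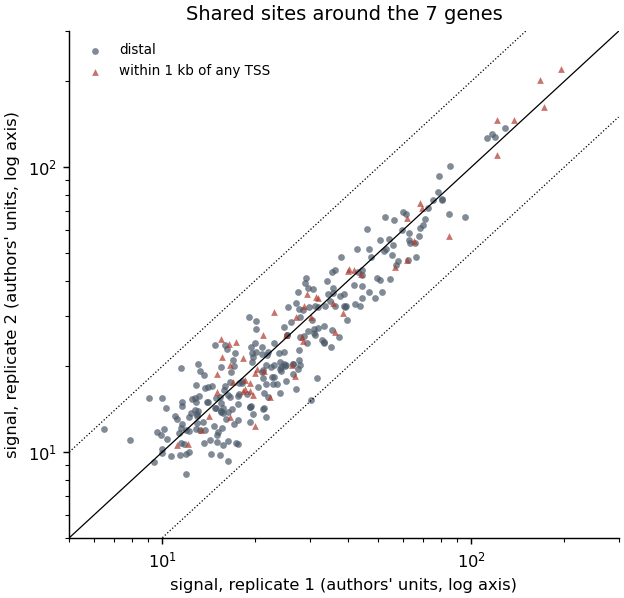
Signal in replicate 1 (horizontal) and replicate 2 (vertical) of the 319 shared sites around the 7 genes, in the authors' units on log axes, with the line of equality and dotted lines at 2-fold. Promoter sites and distal sites follow the same line, and the highest sites are the promoters of Foxc2, of Tbpl1 (a neighbour of Tcf21) and of Foxc1.

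Motif letters of the factors themselves, except ZHX2, and of other factors were looked for in the central 150 bp of each site, on both strands. The letters were GNGTGGGAG for WT1, GCGTGGGCG for EGR factors, CAGCTG for the E-box of TCF21 dimers, TAATTA for LMX1B and other homeodomains, TGTTTAC for forkhead factors, TGCTGAC for the MAF half-site, ACATTCC for TEAD, GCGTGAC for the PAX half-site, AGGGGGCGC for the CTCF core and GGGCGG for SP/KLF. SP/KLF letters can overlap those of EGR and WT1. A match is a description and not a binding site. WT1 letters were in 5 of 261 distal sites (1.92%) and 1 of 58 promoter sites (1.72%), against 2.47% and 2.45% of all shared sites of those classes. Forkhead letters were in 9 distal sites (3.45%, against 3.18%), homeodomain letters in 10 (3.83%, against 4.66%) and E-box letters in 42 (16.1%, against 16%). TEAD letters were in 11 (4.21%, against 4.94%), MAF half-sites in 13 (4.98%, against 3.69%) and CTCF core letters in 2 (0.766%, against 0.743%). EGR letters were in 0 (background 0.0662%), as were PAX half-sites (background 0.578%). In the 58 promoter sites, E-box letters were in 10 (17.2%, against 11.4%) and SP/KLF in 15 (25.9%, against 30%). Homeodomain letters were in 3 (5.17%, against 1.82%), MAF in 3 (5.17%, against 2.61%) and forkhead in 2 (3.45%, against 1.75%). TEAD, PAX and CTCF letters were in 1 each (1.72%, against 2.5%, 1.35% and 1.28%) and EGR in 0 (background 0.356%). Most of these shares are near the background, and counts this small cannot set the others apart. Of the E-box sites, 16 lay among the 49 distal sites of Lmx1b, the highest count of the 7 genes. Wt1 had 7 of 42, Tcf21 5 of 43 and Foxc1 2 of 39. Foxc2 had 6 of 57, Foxl1 6 of 58 and Zhx2 6 of 28. Lmx1b is named for its high count, and the difference was not tested. SP/KLF letters were in 30 distal sites (11.5%, against 5.6%), 13 of them at Lmx1b. The median GC content of the distal sites was 52.7%, against 48.7% for all distal sites, and its part in that share was not tested.

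The WT1 matches fell at 4 of the 7 genes, 2 each at Tcf21 and Lmx1b and 1 each at Wt1 and Zhx2. Of the 6 sites, 4 lay in introns of the genes themselves, at Wt1, Tcf21, Lmx1b and Zhx2. In that order, the introns of these genes held 10 of 58, 2 of 51, 31 of 57 and 25 of 36 shared sites. A further match lay between genes, 93385 bp downstream of the Lmx1b TSS, with 38.8 and 32.5. The last lay at -99202 bp from the Tcf21 TSS, with 13.5 and 12.8. The one in Zhx2 intron 2 was the highest of the 6, with 47.2 and 48.5, and the one in Lmx1b intron 2 had 10.3 and 14.3. Those in Wt1, the gene of the factor itself, and in Tcf21 are shown as examples, with the match in capitals. The site in Wt1 intron 1 had 31.4 in replicate 1 and 35.1 in replicate 2, and the site in the Tcf21 intron had 24.8 and 22.5.
Wt1 intron 1 site with WT1 letters (chr2:105130321-105130510, plus strand): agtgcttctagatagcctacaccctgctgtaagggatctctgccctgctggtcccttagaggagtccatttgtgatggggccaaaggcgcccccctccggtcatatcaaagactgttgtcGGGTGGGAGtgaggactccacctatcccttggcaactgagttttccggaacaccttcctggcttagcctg
Tcf21 intron 1 site with WT1 letters (chr10:22818121-22818270, minus strand): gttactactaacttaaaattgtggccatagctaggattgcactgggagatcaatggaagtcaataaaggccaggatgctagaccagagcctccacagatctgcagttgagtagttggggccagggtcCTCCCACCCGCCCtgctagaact
In the Tcf21 site the capitals join a WT1 match and an overlapping SP/KLF match.

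Genes that work beside these factors were open as well. All 6 further podocyte regulators of the list had a promoter peak in both replicates, as did all 12 podocyte effector genes, against 71.8% of protein-coding genes. Col4a3 and Col4a4, the collagen IV chains of the glomerular basement membrane, share 1 promoter peak (22.0 and 22.6). The related genes Zhx1 and Zhx3 had 229 ± 26.5 and 135 ± 8.97, above Zhx2. Markers of further kidney cells were counted too, from lists chosen with earlier results of these data known, so the counts are no check of the tissue. All 4 nephron progenitor, 3 stromal and 3 endothelial markers had such a peak. So did 4 of 5 of proximal tubule (not Slc34a1), 2 of 3 of loop and distal tubule (not Slc12a1) and 2 of 3 of collecting duct (not Aqp2). Of markers of other cells, 0 of 3 leukocyte genes (Adgre1, C1qb and Ptprc), 0 of 3 erythroid genes (Alas2, Gata1 and Hba-a1) and 1 of 3 adrenal cortex genes (Star, but not Cyp11a1 or Cyp11b1) had one. Slc12a1, Aqp2 and Cyp11a1 had a low peak in replicate 2 only (9.75, 9.42 and 10.1), and Ptprc in replicate 1 only (8.72).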

How the data were processed

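DNase-seq peaks of 2 libraries of newborn mouse kidney were used. The authors deposited 1 peak list per replicate, made from 36-nt reads aligned to mm10, per the file headers. No aligner, peak caller or threshold is named in those headers or the labels. The deposited signal of a peak (column 7) was used to describe and rank peaks, and whether it was scaled for depth is not given. The deposited −log10 p (column 8) was not used in any result. Lists held 266133 and 257133 peaks.

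Sites were unions of peaks overlapping by at least 1 bp between replicates. TSSs, exons and introns came from GENCODE M21, introns being numbered in the transcript of the best APPRIS class, then the longest coding sequence. Distances run from site centres to the most 5′ TSS, with gene direction. Each replicate's value is given, or the mean with its SD (n = 2). Depth is unknown, so no precision per peak can be stated. Alternatives were another overlap, a stricter signal limit, single replicates, other windows, TSS sets and distances. The overlap functions were tested on simulated data. The genes, the marker lists and the motifs were chosen with earlier results of these data known. All 7 genes are named whatever their values. At each, the strongest promoter peak, the distal site of highest mean rank and those next in rank are described (the sites ranked 4 and 5 at Foxc2 were added after their values were seen), and of marker lists the genes with no promoter peak in both replicates are named. Other marker genes were named after their values were seen. Sequences were read with pysam 0.24.0, tables handled with pandas 2.3.3 and numpy 2.4.6, correlations computed with scipy 1.17.1 and plots drawn with matplotlib 3.10.9, under Python 3.11.15. Some results that the rules name are not reported here.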

Additional observations from a re-analysis of the deposited data

How the results depend on the processing

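The count of 7 genes with a promoter peak in both replicates was the same under all alternatives run, from 7 to 7 with either replicate left out. Summed over the genes, the 390 shared sites within 100 kb became 335 when peaks had to overlap by 50% of the shorter one, 236 when the lower 50% of peaks by signal were left out, 237 within 50 kb, and 473 to 484 with either replicate left out, when every peak of the other counts. The last 3 changes follow from how those counts are made. The median promoter signal of the 7 genes, 116, became 227 when all peaks in the window were summed, kept its value with windows of 500 bp or 2 kb, and ran from 110 to 121 with either replicate left out. For single genes, Lmx1b had 24.99 in place of 35.5 with a window of 500 bp, and Zhx2 had 79.8 in place of 70.6 with one of 2 kb, which takes in its upstream site. No paired analysis was possible because the study has 1 group. The peak lists hold no read counts, so what depth limits cannot be computed. The authors' threshold sets how many weak peaks enter.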

Other observations

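A further pattern was looked up after the printed promoters had been read. The printed promoters of Foxc1 and Foxc2 have a longest common run of 10 bases, TTTTCCCAAT, which begins 17 bp downstream of the TSS in Foxc1 and 5 bp downstream in Foxc2. It was found in the central 150 bp of 5 of the 46681 shared promoter sites, on either strand. These include the Foxc1 and Foxc2 sites from which the run was taken. The run was picked as the longest common one, so its rarity is part of how it was chosen.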
